A study of Homo sapiens with 36 samples.

Results

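The 6 libraries described here come from HN6, a human line of head and neck squamous cell carcinoma: 3 from cells transfected with plasmids that carry ACLY and 3 from cells transfected with the vector. They are 6 of the 36 libraries of a study of HN4, HN6 and Cal27 cells, and were taken by their labels alone, with no measured value used. All cells grew in medium with serum depleted of exosomes. The labels give neither the amount of plasmid, the time after transfection, the vector's name nor whether a culture is a clone or a pool, and the untreated HN6 and the HN6 given 100 ng/ml IL-8 for 24 h that are used further on belong to the other experiment of the same study. The plasmid experiment was done to look for events downstream of the enzyme. The replicates carry numbers, but the labels do not say whether each was its own culture, so the p-values rest on a spread that may be technical alone.

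ACLY, ATP citrate lyase, cleaves citrate that has left the mitochondria and yields acetyl-CoA and oxaloacetate in the cytosol and nucleus. That acetyl-CoA is the carbon source of fatty acid and cholesterol synthesis and a substrate for the acetylation of histones and other proteins. Carcinoma cells are known for high ACLY, and acetate can replace citrate as the source when acetyl-CoA synthetases such as ACSS2 are active.

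The libraries held 17203673 to 19472634 counts with ACLY plasmid and 17937052 to 18310242 with vector, and mitochondrial genes took 5.57 to 5.75% of them with ACLY plasmid and 4.44 to 4.77% with vector. A count was present for 24797 to 25167 genes with ACLY plasmid and for 23307 to 23771 with vector. The first principal component, 73.8% of the variance, separated the groups, and vector replicate 1 stood apart from the other vector libraries on the second (8.14%). Genes at 20 CPM or more in untreated HN6 and at most 0.3 CPM in the other untreated lines numbered 9, and these stood at a median of 0.833 of their untreated level with ACLY plasmid and 1.02 with vector. With limits of 5 CPM and 0.1 CPM the 24 HN6 genes stood at 1.13 with ACLY plasmid and 1.00 with vector. The 12 genes that mark HN4 by the first rule stood at 2.64e-04 with ACLY plasmid and 1.06e-04 with vector, and the 13 that mark Cal27 at 0.00121 with ACLY plasmid and 0 with vector. Of the 6 squamous epithelial markers all were detected, and KRT5, a basal keratin, had 740.3 ± 4.34 CPM with ACLY plasmid and 733.5 ± 13.6 CPM with vector (SD, n = 3 each; adjusted p = 0.796). KRT14, its usual partner, was close to absent, with 25 counts over the ACLY plasmid libraries and 42 over the vector libraries.

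ACLY itself checks the labels. The gene (ENSG00000131473, chr17:41866908-41930542, minus strand, hg38) had 2208.5, 2206.6 and 2089.8 CPM (counts relative to the library total, scaled between libraries by the trimmed mean of M values) in HN6 with ACLY plasmid, against 269, 264 and 264 CPM in HN6 with vector. All 3 plasmid libraries lay far above all 3 vector libraries, and the difference was 8.15-fold (log2 3.03 ± 0.04 SE, edgeR quasi-likelihood test, Benjamini-Hochberg adjusted p = 1.12e-34). Below, ± is the SE of a log2 change or the SD of 3 libraries for a level in CPM. Counts per gene do not separate transcripts of the plasmid from those of the chromosomal gene.

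HN6 with ACLY plasmid differed from HN6 with vector in most of the genes tested. Of 16073 genes with enough counts to test, 9781 (60.9%) passed an adjusted p of 0.05, 4785 of them higher with ACLY plasmid (29.8%) and 4996 lower (31.1%), and these shares are the background against which every count below is read. The balance of directions depended on the scaling: with library size alone 5527 genes were called higher and 4189 lower, and with upper-quartile scaling 5603 higher and 4146 lower. Most of those changes were small: 5185 of the called genes moved by under 1.5-fold, and the median size over all tested genes was 0.38 on the log2 scale. At 2-fold or more the balance tilted upwards, with 1524 genes higher (9.48%) and 493 lower (3.07%), and at 4-fold or more 341 were higher and 30 lower. The values of the 3 plasmid and 3 vector libraries did not overlap for 10386 genes (64.6%). For comparison in mean levels alone, with no test, 2161 of these genes differed by 2-fold or more between HN6 with ACLY plasmid and HN6 with vector, 111 between HN6 with vector and untreated HN6, and 655 between HN6 with IL-8 and untreated HN6.

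**Figure D1:**
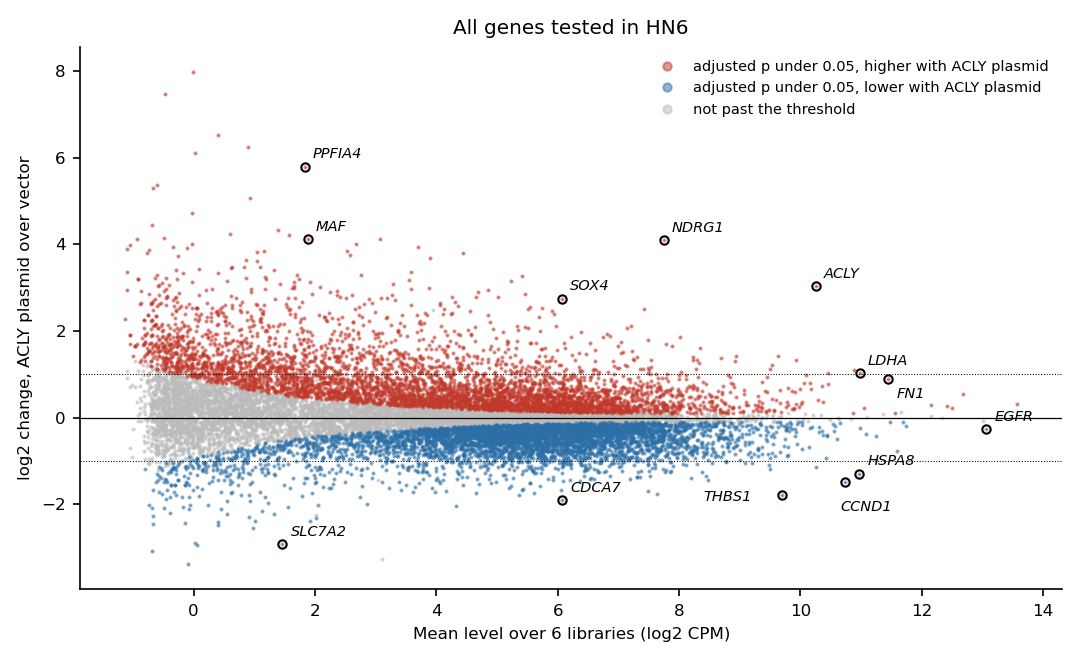
Change against level for the 16073 genes tested in HN6. The x axis is the mean level over the 6 libraries in log2 CPM, the y axis the log2 change of ACLY plasmid over vector, each point is a gene and dotted lines mark 2-fold; large rises gather among genes of low level, while ACLY, NDRG1 and SOX4 rose from the level of well-measured genes.

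The direction depended on the level of the gene. Among the 5358 genes of highest level, from 41.3 CPM upwards, 1492 rose and 2671 fell (median log2 change -0.12). Among the 5358 of lowest level, under 6.40 CPM, 1642 rose and 530 fell (median 0.28), and 1046 of the rises reached 2-fold. Long noncoding RNAs lay on the same side, with 641 of 2051 higher and 187 lower, against 3912 higher and 4644 lower of 12915 protein-coding genes. Chromosome 19 had 37.2% of its tested genes higher and 22.6% lower, whereas chromosome 13 had 20.4% higher and 43.3% lower.

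**Figure D2:**
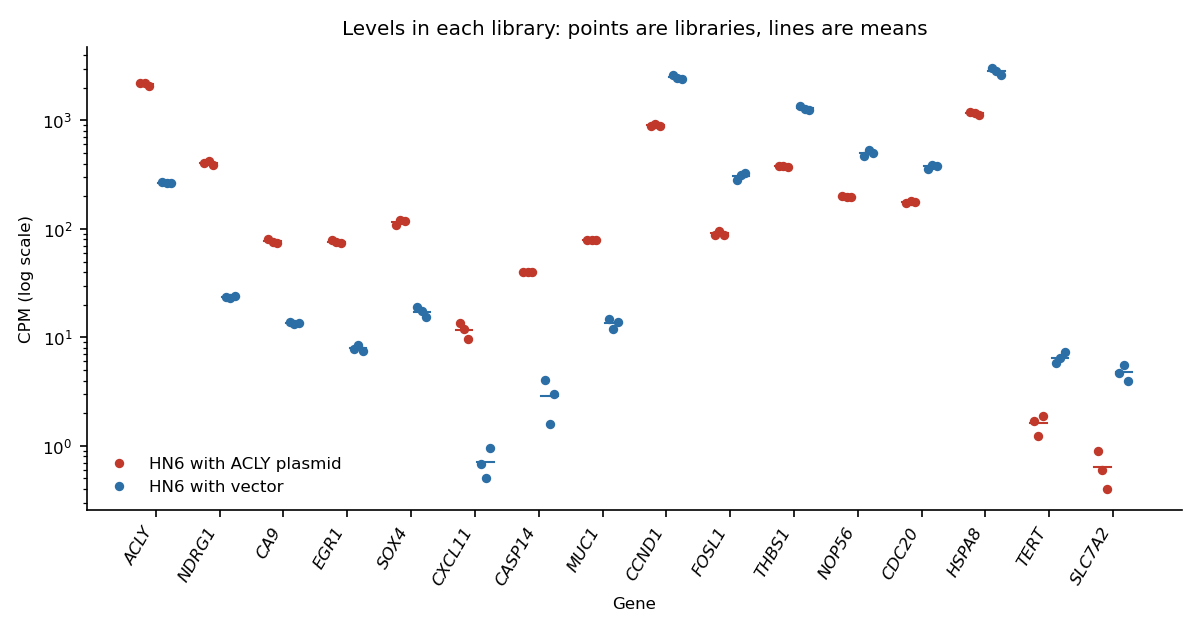
Levels of 16 named genes in each library. The y axis is CPM on a log scale, each point is a library and short lines are means of 3. HN6 with ACLY plasmid stands left of HN6 with vector for every gene. The groups overlap for none of the 16, and they do not overlap for 64.6% of all tested genes. Several of the 16 were named by a ranking that required no overlap.

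Around ACLY, the genes that supply and use acetyl-CoA moved unevenly. Of the 24 tested, 13 rose, ACLY itself among them, and 5 fell, with a median log2 change of 0.24, against 0.01 over all genes tested. ACSS2, the cytosolic enzyme that makes acetyl-CoA from acetate, had 107, 107 and 105 CPM with ACLY plasmid, against 61.0, 57.1 and 58.4 CPM with vector, and all plasmid libraries were higher (log2 0.85 ± 0.05, adjusted p = 6.78e-16). PDK2, a kinase that switches off the pyruvate dehydrogenase complex, rose 2.07-fold, to 19.2 ± 1.28 CPM with ACLY plasmid, against 9.24 ± 0.06 CPM with vector. CS, the mitochondrial enzyme that makes citrate, fell by 0.68 on the log2 scale, with 152, 147 and 141 CPM with ACLY plasmid, against 242, 231 and 231 CPM with vector. In the tricarboxylic acid cycle 13 of 26 genes fell and 5 rose (median -0.11), among the falls IDH3A (log2 -0.90), a subunit of the NAD-linked isocitrate dehydrogenase, and among the rises IDH2 (log2 0.80), its NADP-linked counterpart.

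The lipid programmes that use acetyl-CoA did not move as a block. In fatty acid synthesis and elongation 10 of 27 genes rose and 8 fell (median 0.01). SCD, the desaturase that makes monounsaturated fatty acids, had 1805, 1775 and 1738 CPM with ACLY plasmid, against 1092, 1028 and 990 CPM with vector, without overlap (log2 0.77 ± 0.04). FASN, the fatty acid synthase, rose by 0.33 on the log2 scale, to 908 ± 35.5 CPM with ACLY plasmid, against 723 ± 26.7 CPM with vector. ACACA, whose product carboxylates acetyl-CoA to malonyl-CoA, fell by 0.22 on the log2 scale.

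Cholesterol synthesis and uptake had more rises: 18 of 28 genes rose and 5 fell, with a median of 0.30. INSIG1, which retains the sterol sensor in the endoplasmic reticulum and is itself a sterol-regulated gene, had 199, 194 and 198 CPM with ACLY plasmid, against 88.5, 85.9 and 85.5 CPM with vector. The libraries of the groups lay far apart (log2 1.18 ± 0.05, adjusted p = 1.77e-21). TM7SF2, a sterol reductase, rose by 1.41 on the log2 scale and MSMO1, a sterol oxidase, by 1.14. ABCA1, which exports cholesterol, had 6.27, 7.90 and 7.32 CPM with ACLY plasmid, against 1.07, 0.957 and 0.624 CPM with vector (log2 3.01 ± 0.23), and 5 of the 10 tested genes of cholesterol efflux and liver X receptor response rose and 0 fell. In fatty acid oxidation 8 of 24 genes rose and 6 fell.

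Genes for writing and removing histone acetylation were divided, with 12 of 31 lower and 8 higher under the scaling used, a majority that turned to higher under another scaling. HAT1, which acetylates newly made histone H4, fell by 0.98 on the log2 scale, to 136, 144 and 145 CPM with ACLY plasmid, against 284, 272 and 284 CPM with vector. KAT2A, an acetyltransferase of promoter complexes, fell by 0.90, and HDAC11, a deacetylase, rose by 0.81. EP300, a broad acetyltransferase, had 168 ± 6.51 CPM with ACLY plasmid and 172 ± 9.09 CPM with vector (adjusted p = 0.578).

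The hypoxia-induced genes had the highest median of the 49 lists. Of 25 tested, 24 rose and 0 fell, 14 of them by 2-fold or more, with a median log2 change of 1.26. The exception was EPAS1, which encodes the factor HIF-2 alpha, with 223, 232 and 229 CPM with ACLY plasmid, against 241, 239 and 231 CPM with vector (log2 -0.06, adjusted p = 0.284). The promoters of CA9 and BNIP3 are shown because both genes rose and both windows hold the core letters of the hypoxia response element. Capitals mark ACGTG or its reverse complement CACGT in the 250 bases upstream of the start site, from RefSeq on GRCh38.p14.

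CA9, chr9:35673678-35673927, plus strand: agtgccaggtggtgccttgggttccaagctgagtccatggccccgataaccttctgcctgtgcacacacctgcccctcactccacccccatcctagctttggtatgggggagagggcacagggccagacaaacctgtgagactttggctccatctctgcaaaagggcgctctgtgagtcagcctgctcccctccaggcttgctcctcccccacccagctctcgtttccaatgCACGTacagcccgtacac

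BNIP3, chr10:131981924-131982173, minus strand: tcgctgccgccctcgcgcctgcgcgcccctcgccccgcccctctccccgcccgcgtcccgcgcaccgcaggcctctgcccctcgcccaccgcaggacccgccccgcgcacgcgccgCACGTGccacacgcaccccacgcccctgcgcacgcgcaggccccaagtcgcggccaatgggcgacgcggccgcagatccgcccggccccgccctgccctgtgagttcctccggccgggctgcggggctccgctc

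These letters were found on either strand in 13 of the 22 list members with an entry (59.1%), against 18.7% of all 27305 promoters. Such shares, here and below, count tested list members whatever their change. Whether the letters go with a change was not tested. CA9, a carbonic anhydrase of the cell surface, had 80.5, 76.3 and 74.8 CPM with ACLY plasmid, against 13.8, 13.3 and 13.4 CPM with vector (log2 2.51 ± 0.07, adjusted p = 2.23e-25). BNIP3, a mitophagy receptor, had 183, 183 and 183 CPM with ACLY plasmid, against 51.8, 50.9 and 47.2 CPM with vector (log2 1.87 ± 0.05). The plasmid libraries sat several times above the vector libraries for both genes. CA9 overlaps ARHGEF39 on the other strand, and whether counting used strand is not given in the sources used here.

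NDRG1, a stress-induced gene of differentiation, rose most within the list. It had 405, 423 and 388 CPM with ACLY plasmid, against 23.5, 23.2 and 24.3 CPM with vector, a 17.1-fold difference (log2 4.10 ± 0.06, adjusted p = 2.04e-35). ANGPTL4, a secreted inhibitor of lipoprotein lipase, rose by 2.60 on the log2 scale, DDIT4, an inhibitor of mTORC1, by 2.08 and VEGFA, the angiogenic growth factor, by 0.93. HIF1A, which encodes HIF-1 alpha, had 485, 466 and 497 CPM with ACLY plasmid, against 387, 366 and 404 CPM with vector (log2 0.33 ± 0.04). Glycolysis as a whole was mixed, with 14 of 28 genes higher and 7 lower (median 0.10). LDHA, lactate dehydrogenase, rose 2.04-fold, to 2694, 2753 and 2653 CPM with ACLY plasmid, against 1374, 1356 and 1249 CPM with vector. The glucose carrier SLC2A12 (log2 2.03) and the enolase ENO2 (log2 2.02) rose most, PGK1, phosphoglycerate kinase, rose by 0.98, and HK2, a hexokinase, had 111 ± 1.15 CPM with ACLY plasmid and 108 ± 0.39 CPM with vector (adjusted p = 0.571).

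MIR210HG, the host transcript of the hypoxia-induced miR-210, had 16.3, 15.7 and 14.5 CPM with ACLY plasmid, against 0.790, 1.41 and 0.454 CPM with vector, with no overlap (log2 4.12 ± 0.20). MIR17HG, the host of the miR-17-92 cluster, which is known as an oncogenic cluster driven by MYC and E2F factors, had 0.960, 1.03 and 1.29 CPM with ACLY plasmid, against 4.01, 4.34 and 5.56 CPM with vector (log2 -2.07 ± 0.25). The host transcripts thus moved in opposite directions. The mature miRNAs they carry are shown because each host changed 4-fold or more, with the seed, bases 2 to 8, in capitals, from RefSeq on GRCh38.p14. Mature miRNAs were not measured in these poly-T selected libraries.

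hsa-miR-210-3p, chr11:568112-568133, minus strand: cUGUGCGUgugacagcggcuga

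hsa-miR-17-5p, chr13:91350618-91350640, plus strand: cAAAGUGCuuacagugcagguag

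hsa-miR-20a-5p, chr13:91351072-91351094, plus strand: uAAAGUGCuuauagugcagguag

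hsa-miR-18a-5p, chr13:91350756-91350778, plus strand: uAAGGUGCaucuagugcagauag

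hsa-miR-19a-3p, chr13:91350939-91350961, plus strand: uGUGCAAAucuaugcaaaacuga

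hsa-miR-19b-3p, chr13:91351245-91351267, plus strand: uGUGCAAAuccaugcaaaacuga

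hsa-miR-92a-3p, chr13:91351361-91351382, plus strand: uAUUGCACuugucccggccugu

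miR-17-5p and miR-20a-5p share the seed AAAGUGC, and miR-19a-3p and miR-19b-3p share GUGCAAA. The seeds of miR-18a-5p, miR-92a-3p and miR-210-3p each stand alone in this group.

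Proliferation genes fell. All 35 tested genes of the cell cycle and mitosis list were lower with ACLY plasmid and 0 were higher, with a median log2 change of -0.89 and a range of -1.93 to -0.26, and 36 of the 37 tested DNA replication genes fell (median -0.88). CDC20, an activator of the anaphase-promoting complex, had 172, 181 and 176 CPM with ACLY plasmid, against 359, 386 and 383 CPM with vector (log2 -1.09 ± 0.04, adjusted p = 3.97e-21). PLK1, the mitotic polo-like kinase, had 67.2, 63.7 and 62.5 CPM with ACLY plasmid, against 146, 154 and 160 CPM with vector (log2 -1.25 ± 0.05). For both, every plasmid library lay under every vector library by more than the whole spread within a group. The promoters of these genes are shown because they hold the letters TTTGAA, in capitals with the reverse complement TTCAAA, that form the core of the cell cycle homology region element of late cell cycle genes.

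CDC20, chr1:43358731-43358980, plus strand: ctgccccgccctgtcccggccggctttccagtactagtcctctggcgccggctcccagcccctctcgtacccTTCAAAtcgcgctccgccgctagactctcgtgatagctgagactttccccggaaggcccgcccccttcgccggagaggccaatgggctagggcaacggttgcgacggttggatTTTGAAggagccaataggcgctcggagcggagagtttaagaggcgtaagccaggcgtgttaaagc

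PLK1, chr16:23678639-23678888, plus strand: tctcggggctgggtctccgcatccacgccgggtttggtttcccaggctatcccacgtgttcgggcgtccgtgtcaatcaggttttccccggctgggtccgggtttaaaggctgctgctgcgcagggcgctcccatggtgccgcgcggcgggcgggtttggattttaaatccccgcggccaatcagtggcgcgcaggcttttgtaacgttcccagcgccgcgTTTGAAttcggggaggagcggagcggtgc

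TTTGAA on either strand stood in 17 of 29 cell cycle members with an entry (58.6%) and in 1 of 32 DNA replication members (3.12%), against 13.6% of all promoters. CCAAT on either strand stood in 24 of 29 (82.8%) and 18 of 32 (56.2%) of them, against 33.0% of all promoters. Lower levels of proliferation RNAs in bulk libraries do not separate fewer cycling cells from less RNA per cell.

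Within the replication list, MCM10, which acts in the activation of the loaded replicative helicase, fell by 1.20 on the log2 scale, MCM2, a subunit of that helicase, by 0.96 and PCNA, the sliding clamp, by 0.82. E2F2, a transcription factor of S phase entry, was the member that did not pass, with 13.4 ± 0.63 CPM with ACLY plasmid and 15.2 ± 0.82 CPM with vector (adjusted p = 0.136). CCND1, cyclin D1, the cyclin of G1 progression, had 886, 924 and 889 CPM with ACLY plasmid, against 2645, 2480 and 2401 CPM with vector, 0.359 of the vector level (log2 -1.48 ± 0.04, adjusted p = 1.95e-25). Of 16 tested G1 cyclins, kinases, inhibitors and pocket proteins 4 rose and 9 fell (median -0.51). Among the rises were the cyclin-dependent kinase inhibitors CDKN2B, with 55.1 ± 2.03 CPM with ACLY plasmid, against 16.1 ± 0.86 CPM with vector (log2 1.77 ± 0.08), and CDKN1A, with 300, 300 and 290 CPM with ACLY plasmid, against 141, 156 and 149 CPM with vector (log2 1.00 ± 0.05). The p53 targets as a list were mixed, with 9 of 25 higher and 6 lower, and MDM2, the p53-induced ligase of p53, had 84.5 ± 2.04 CPM with ACLY plasmid and 82.2 ± 4.60 CPM with vector (adjusted p = 0.538).

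Ribosome biogenesis had the lowest median of the 49 lists. In the MYC and ribosome biogenesis list 26 of 31 genes fell, 16 of them by 2-fold or more, and 3 rose, with a median log2 change of -1.05. NOP56, a core protein of box C/D small nucleolar ribonucleoproteins, had 199, 198 and 195 CPM with ACLY plasmid, against 471, 530 and 498 CPM with vector (log2 -1.34 ± 0.05, adjusted p = 2.20e-23). NCL, nucleolin, had 741, 778 and 782 CPM with ACLY plasmid, against 1740, 1685 and 1650 CPM with vector (log2 -1.14 ± 0.04). The plasmid libraries stood at under 0.5 of the vector libraries for both nucleolar proteins. MYC, a transcription factor that drives this programme, fell by 0.64 on the log2 scale, and the 3 members that rose were MXD4 (1.74), MXI1 (1.14) and MXD1 (0.95), partners of MAX that oppose MYC. CACGTG, which contains ACGTG, was found in 3 of 24 members with a promoter entry (12.5%), against 6.49% of all promoters. These were MXD4, which rose, and UTP20 and UTP4, which fell.

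Genes were also grouped by the letters of their symbols, in 94 families of 15 or more tested members. The NUP symbols, nucleoporins apart from a few relatives, had 20 of 21 lower and 0 higher (median -0.68), with NUP35, picked after its value was seen, at -1.11. Of the TIMM symbols, subunits of mitochondrial import, 13 of 15 fell, and of the POLR symbols, RNA polymerase subunits, 22 of 31 fell and 0 rose. The translation initiation symbols EIF had 40 of 54 lower and 0 higher, with EIF5A, picked in the same way, at -1.09, and the mitochondrial ribosomal symbols MRPL had 38 of 48 lower and 1 higher. Of the RPL symbols, large-subunit ribosomal proteins, 24 of 48 fell and 2 rose, at a median of -0.11. Of the RPS symbols, which hold small-subunit proteins and the S6 kinases, 13 of 42 fell and 7 rose, at a median of -0.05.

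**Figure D3:**
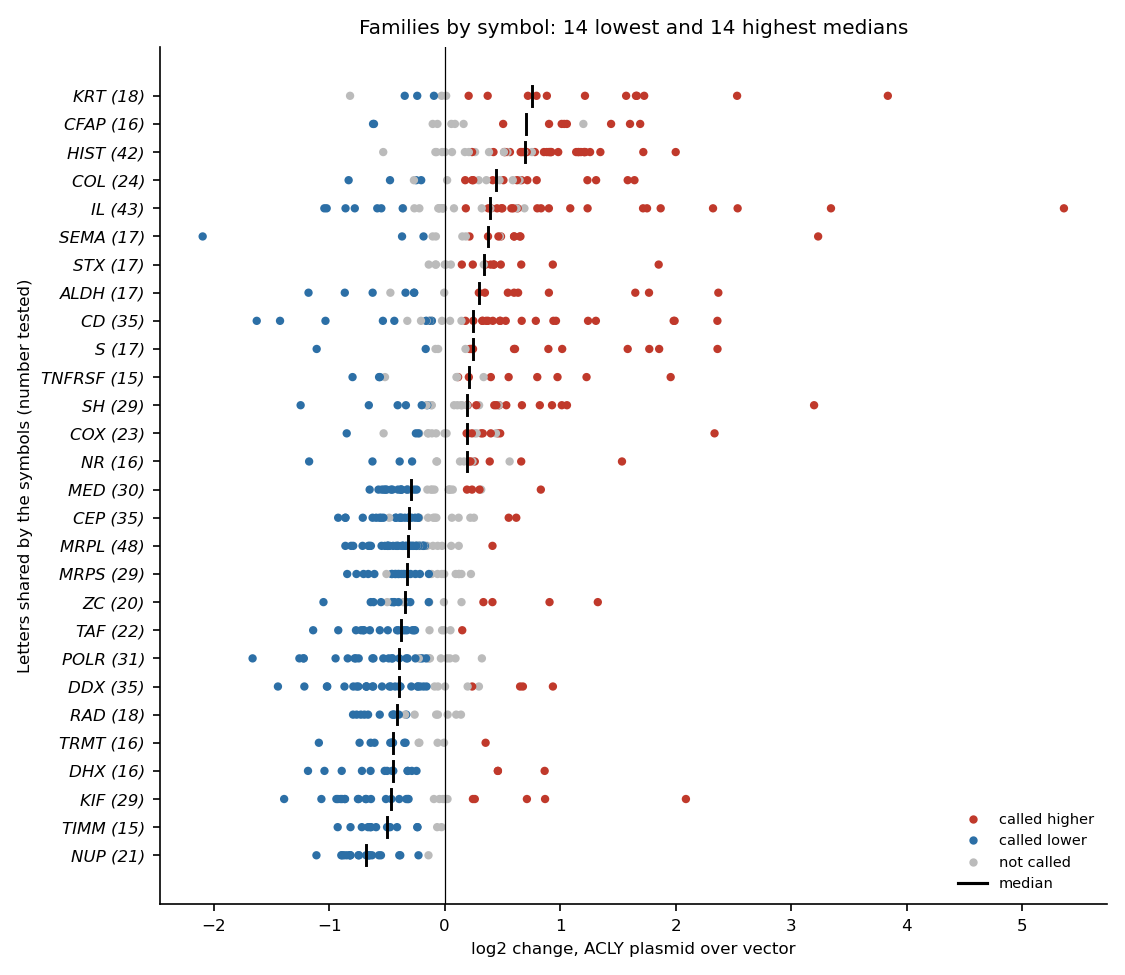
Log2 changes of single genes in the 14 symbol families with the lowest and the 14 with the highest medians. The x axis is the log2 change of ACLY plasmid over vector, rows are families with the number of genes tested, colours give the call and black ticks the medians; NUP lies at -0.68 and KRT at 0.76, and single members such as KIF and DDX genes cross to the other side.

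The 7 highest medians were those of keratins (0.76), the CFAP symbols of cilia and flagella (0.71, 8 of 16 higher and 2 lower), histones, collagens, the IL symbols of interleukins and their receptors (0.40, 21 of 43 higher and 7 lower), the SEMA symbols of semaphorins (0.38, 9 of 17 higher and 3 lower) and syntaxins. Of 42 tested HIST symbols 28 rose and 0 fell (median 0.70), counted in libraries selected on poly-T, and many of these genes have near-identical copies between which reads can be split. Of 17 STX symbols, syntaxins of vesicle fusion, 10 rose and 0 fell (median 0.34), and of 24 collagen symbols 13 rose and 4 fell. Of 18 keratins 12 rose and 3 fell: KRT23 had 9.89, 10.8 and 10.3 CPM with ACLY plasmid, against 0.508, 0.901 and 0.737 CPM with vector (log2 3.84 ± 0.21), and KRT17, a keratin of stressed epithelium, 194, 199 and 188 CPM with ACLY plasmid, against 62.5, 62.7 and 59.3 CPM with vector (log2 1.66 ± 0.05). The simple-epithelium pair KRT8 (-0.09) and KRT18 (-0.24) fell slightly, and KRT5 was not called. KRT6B, KRT16 and KRT17 have close copies, so that their counts are uncertain where reads could be shared.

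Cytosolic chaperones fell while chaperones of the endoplasmic reticulum rose. In the heat shock list 21 of 26 genes fell and 2 rose (median -0.77). HSPA8, the constitutive HSP70, had 1187, 1170 and 1121 CPM with ACLY plasmid, against 3038, 2856 and 2630 CPM with vector, with all 3 plasmid libraries under 0.5 of any vector library (log2 -1.29 ± 0.05, adjusted p = 5.65e-22). FKBP4, a co-chaperone of HSP90, fell by 1.41 on the log2 scale, HSPD1, the mitochondrial chaperonin, by 1.18 and HSP90AB1 by 0.98, and the small heat shock protein HSPB1 rose by 0.78 (adjusted p = 0.00402). In endoplasmic reticulum folding 20 of 27 genes rose and 3 fell, at a median of 0.29. HERPUD1, of the degradation pathway at that membrane, rose by 1.04, and HSPA5, the HSP70 of the endoplasmic reticulum, by 0.29, with 688, 713 and 689 CPM with ACLY plasmid, against 593, 575 and 540 CPM with vector.

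The integrated stress response split into 14 higher and 14 lower of 31, a balance that shifts with the scaling. CHAC1, a glutathione-degrading enzyme induced by the factor ATF4, had 8.42, 8.82 and 7.02 CPM with ACLY plasmid, against 0.677, 1.41 and 1.13 CPM with vector (log2 2.90 ± 0.22). SLC7A5, a carrier of large neutral amino acids from the same list, had 380, 393 and 374 CPM with ACLY plasmid, against 795, 794 and 793 CPM with vector (log2 -1.06 ± 0.04). Neither gene's groups overlapped, and they lay on opposite sides. Oxidative stress genes were mixed as well, with 9 of 27 higher and 14 lower: HMOX1, heme oxygenase 1, rose by 2.40 and FTH1, ferritin heavy chain, by 1.10, and GCLM, of glutathione synthesis, fell by 0.63.

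Inflammatory and antiviral genes rose across several lists. Of 38 tested interferon-stimulated genes 29 rose and 1 fell (median 0.50), of 27 NF-kB factors and targets 20 rose and 3 fell (median 0.51), and of 31 cytokines and chemokines 23 rose and 2 fell (median 0.70). CXCL11, a chemokine for T cells, had 13.7, 11.8 and 9.56 CPM with ACLY plasmid, against 0.677, 0.507 and 0.964 CPM with vector (log2 4.01 ± 0.22, adjusted p = 1.26e-17). CXCL10, its neighbour on chromosome 4, had 5.03, 4.92 and 5.78 CPM with ACLY plasmid, against 0.508, 0.732 and 1.08 CPM with vector (log2 2.75 ± 0.26). Every plasmid library was above every vector library for both, and both genes lie within the span of ART3. IFIT3, an antiviral tetratricopeptide protein, rose less, to 47.3, 45.3 and 48.5 CPM with ACLY plasmid, against 33.4, 35.3 and 31.4 CPM with vector (log2 0.50 ± 0.07). The promoters of CXCL10 and IFIT3 are shown for the letters of the interferon-stimulated response element, GAAA and GAAA with 2 bases of any kind between them on either strand, in capitals.

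CXCL10, chr4:76023498-76023747, minus strand: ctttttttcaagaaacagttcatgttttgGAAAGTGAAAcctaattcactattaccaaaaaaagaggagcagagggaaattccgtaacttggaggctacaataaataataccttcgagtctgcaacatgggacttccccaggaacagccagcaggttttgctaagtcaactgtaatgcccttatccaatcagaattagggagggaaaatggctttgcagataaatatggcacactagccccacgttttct

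IFIT3, chr10:89327747-89327996, plus strand: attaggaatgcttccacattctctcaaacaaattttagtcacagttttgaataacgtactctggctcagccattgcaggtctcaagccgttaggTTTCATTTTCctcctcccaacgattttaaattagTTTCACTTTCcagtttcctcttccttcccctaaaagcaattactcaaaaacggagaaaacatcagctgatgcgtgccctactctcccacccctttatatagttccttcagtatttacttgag

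These letters stood in 16 of 30 list members with an entry (53.3%), against 3.07% of all promoters. The list was drawn up as interferon-stimulated genes, and the share counts its tested members whatever their call. Members without the letters, such as CXCL11, rose too, and OAS3, which holds them, fell. Among the genes of factors that act at this element, alone or in a complex, STAT2 had 142, 139 and 135 CPM with ACLY plasmid, against 51.8, 58.1 and 57.4 CPM with vector (log2 1.32 ± 0.05) and IRF7 rose by 0.70. IRF9, another of them, had 1.72 ± 0.18 CPM with ACLY plasmid and 1.62 ± 0.36 CPM with vector (adjusted p = 0.819). In antigen presentation 19 of 27 genes rose and 5 fell (3 without ACLY plasmid replicate 2), B2M, the light chain of class I, with 1083, 1095 and 1122 CPM with ACLY plasmid, against 670, 725 and 650 CPM with vector (log2 0.69 ± 0.04). Among the falls were CD274, which encodes PD-L1 (-0.53), and TAP2, of the peptide transporter (-0.96).

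CXCL8, the gene of IL-8, had 452, 455 and 458 CPM with ACLY plasmid, against 201, 186 and 184 CPM with vector, without overlap (log2 1.26 ± 0.04, adjusted p = 7.71e-23). CXCL1, another ligand of its receptors, rose by 1.34, the granulocyte growth factor CSF3 by 2.49 and the interleukin-1 antagonist IL1RN by 2.32. SOD2, a mitochondrial superoxide dismutase and NF-kB target, had 485, 495 and 494 CPM with ACLY plasmid, against 168, 164 and 152 CPM with vector (log2 1.61 ± 0.05). TNFAIP3, which encodes the NF-kB inhibitor A20, rose by 0.94 and NFKBIA, the inhibitor I-kappa-B alpha, by 0.56, while the factor gene NFKB1 fell by 0.46. In complement and coagulation 14 of 22 genes rose and 4 fell: C3, the central component, had 1940, 1925 and 1830 CPM with ACLY plasmid, against 940, 925 and 906 CPM with vector (log2 1.04 ± 0.04), and CFB, factor B, rose by 2.20. C4A rose too, but it has a near-identical copy in C4B.

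Secreted and barrier products of differentiated epithelium rose. Of 24 mucins and secreted defence proteins 11 passed the filter on low counts, and these 11 were higher with ACLY plasmid and 0 lower, 9 of them by 2-fold or more, with a median of 1.06 and a range of 0.85 to 2.54. MUC1, a membrane mucin, had 79.0, 78.3 and 79.6 CPM with ACLY plasmid, against 14.7, 12 and 13.8 CPM with vector (log2 2.54 ± 0.08, adjusted p = 3.83e-25). LCN2, an iron-sequestering defence protein, had 356, 353 and 363 CPM with ACLY plasmid, against 102, 126 and 111 CPM with vector (log2 1.66 ± 0.05). Both were several times higher in every plasmid library. In squamous differentiation 28 of 45 members passed the filter, of which 21 rose and 2 fell (median 0.95), 13 of the rises by 2-fold or more. CASP14, a protease of cornified epidermis, had 39.96 ± 0.098 CPM with ACLY plasmid, against 2.86 ± 1.22 CPM with vector (log2 3.80 ± 0.16). The regulator GRHL3 (2.23), the kallikrein KLK7 (2.46) and the calprotectin subunit S100A8 (2.36) rose, and SPRR1B, a cornified envelope protein, fell by 0.97. The basal lineage list moved in neither direction, with 9 of 23 higher and 8 lower, and TP63, the master factor of squamous basal cells, rose by 0.21.

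Adhesion and matrix genes moved in both directions. THBS1, thrombospondin 1, had 381, 377 and 371 CPM with ACLY plasmid, against 1359, 1269 and 1245 CPM with vector (log2 -1.78 ± 0.04, adjusted p = 2.19e-27), and FN1, fibronectin, had 3699, 3738 and 3453 CPM with ACLY plasmid, against 2048, 1928 and 1931 CPM with vector (log2 0.88 ± 0.04). These 2 abundant matrix transcripts moved apart, and the ranking that named THBS1 required groups without overlap. In the mesenchymal list 16 of 27 genes rose and 6 fell (median 0.35): LOX, which cross-links collagen, rose by 1.93, PLAUR, the urokinase receptor, by 1.47, and the falls held VIM, vimentin (-0.74), CDH2, N-cadherin (-0.49), and SNAI2, the factor Slug (-0.39). CDH1, E-cadherin, had 638, 649 and 622 CPM with ACLY plasmid, against 450, 437 and 411 CPM with vector (log2 0.56 ± 0.04). Of 34 epithelial junction genes 17 rose and 6 fell, and of 26 integrin, laminin and hemidesmosome genes 11 rose and 9 fell. Matrix metalloproteinases and inhibitors had 13 of 19 higher and 3 lower, with the aggrecanase-family gene ADAMTS9 at 2.41 and ADAMTS1 at -2.39. In the YAP and TAZ target list 13 of 20 genes fell and 1 rose (median -0.47), among the falls CCN1 (-0.69), CCN2 (-0.86) and the receptor kinase AXL (-0.83), and TEAD4, a DNA-binding partner of YAP, fell by 1.28.

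Markers of stromal and blood cells were measured beside these groups. Of 12 fibroblast markers 3 passed the count filter and all 3 rose, with a summed level of 53.5 to 61.1 CPM with ACLY plasmid and 19.4 to 23.4 CPM with vector. In a separate list of 14 fibroblast markers 5 were tested, 4 higher and 1 lower, the fall being that of PDPN, podoplanin (log2 -1.83). Of 7 leukocyte markers 2 were tested and rose (sums of 33.33 to 40.03 CPM with ACLY plasmid and 16.7 to 17.1 CPM with vector). Of 6 endothelial markers 4 were tested, 3 higher and 1 lower. The endothelial sums were 21.1 to 23.3 CPM with ACLY plasmid and 10.9 to 12.98 CPM with vector. TEK, which rose, had 90 counts with ACLY plasmid and 5 with vector, and CLDN5, which fell, had 17 and 44. Both passed the count filter only through the group where they were higher. The defining fibroblast markers DCN and PDGFRA had 0 counts in all 6 libraries and COL1A2 had 1 count with ACLY plasmid and 0 with vector, while COL1A1 made up most of the fibroblast sum. The part of these cells in the rises was not tested. The leukocyte marker PTPRC had 2 counts with ACLY plasmid and 0 with vector, MS4A1 had 0 in all 6 libraries, and the endothelial marker KDR had 2 with ACLY plasmid and 0 with vector.

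Degradation genes and apoptosis regulators also tilted upwards. In autophagy and lysosome 23 of 32 genes rose and 3 fell (median 0.48). ULK1, the kinase that starts autophagy, had 133, 136 and 129 CPM with ACLY plasmid, against 33.0, 31.9 and 37.0 CPM with vector (log2 1.96 ± 0.06, adjusted p = 9.61e-25), and WIPI1, of the forming autophagosome, rose by 2.04. Among apoptosis regulators 16 of 31 rose and 6 fell, with BMF (2.64) and BBC3 (1.68), both proteins with only a BH3 domain, among the rises and BCL2 (-1.72), at 0.508 to 3.16 CPM, among the falls. TXNIP, a glucose-responsive arrestin relative, rose by 1.70 and its relative ARRDC3 by 2.01. For the formation of small extracellular vesicles, the subject of the study's title, 13 of 29 genes rose and 6 fell (median 0.02), with SDCBP, syntenin, at 0.73 and the tetraspanin CD63 at 0.48.

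**Figure D4:**
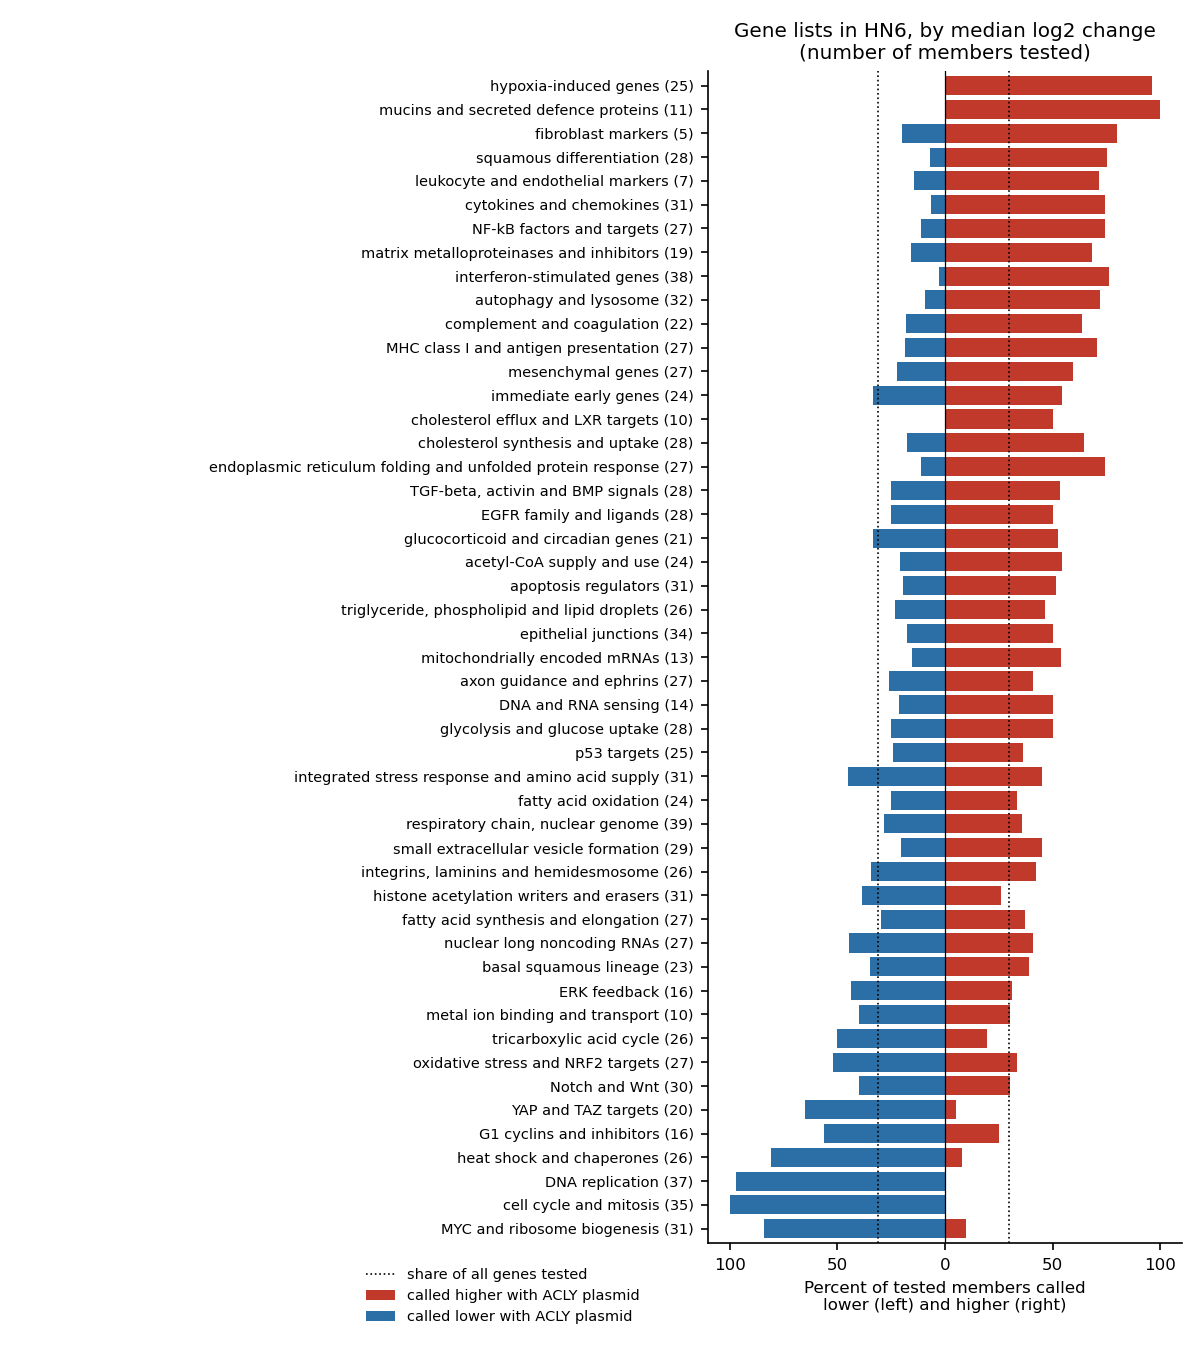
Percent of tested members of each of the 49 lists called higher (right) and lower (left) with ACLY plasmid, ordered by median log2 change. Dotted lines are the shares over all 16073 genes, 29.8% higher and 31.1% lower; hypoxia-induced genes and mucins stand at the top, and cell cycle, DNA replication and ribosome biogenesis at the bottom.

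Transcription factors, like all tested genes, moved in both directions. Of 1068 tested transcription factors 322 rose (30.15%) and 287 fell (26.9%), beside 29.8% and 31.1% of all tested genes. The leucine zipper family had 22 of 44 higher and 9 lower, and the nuclear receptor class related to thyroid hormone receptors 10 of 15 higher and 1 lower, while the MYB class had 12 of 21 lower and 2 higher. MAF, a leucine zipper factor, had 6.72, 6.55 and 6.57 CPM with ACLY plasmid, against 0.565, 0.338 and 0.227 CPM with vector (log2 4.11 ± 0.27). EGR1, an immediate early factor, had 78.7, 75.7 and 74.2 CPM with ACLY plasmid, against 7.79, 8.50 and 7.49 CPM with vector (log2 3.26 ± 0.08, adjusted p = 3.55e-27). FOSL1, the AP-1 member FRA1, had 87.7, 96.0 and 88.4 CPM with ACLY plasmid, against 285, 312 and 328 CPM with vector (log2 -1.77 ± 0.05). The ranking that named these 3 factors required groups without overlap. Immediate early genes went both ways, 13 of 24 higher and 8 lower, with JUNB at 1.57 and FOS at 1.52. SOX4, a developmental factor named after its values were seen, had 108, 120 and 119 CPM with ACLY plasmid, against 19, 17.3 and 15.5 CPM with vector (log2 2.74 ± 0.07).

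Ranked by fold among called protein-coding genes whose mean level was 1 or more in log2 CPM, the largest rise was that of PPFIA4, a liprin, with 5.65, 7.63 and 6.52 CPM with ACLY plasmid, against 0.226, 0.113 and 0 CPM with vector. Its fold rests on 6 counts over the vector libraries. PLA2G2F, a secreted phospholipase, rose by 4.33 on the log2 scale, STEAP4, a metalloreductase, by 3.69, VNN1, a pantetheinase, by 3.37 and MB, myoglobin, by 3.29. ATG9B rose by 3.93, but it overlaps NOS3 on the other strand, which rose by 3.09 (a gene named for this overlap), and without strand their reads cannot be told apart. The largest fall was that of SLC7A2, a carrier of arginine and other cationic amino acids, with 0.904, 0.595 and 0.398 CPM with ACLY plasmid, against 4.74, 5.57 and 3.97 CPM with vector (log2 -2.92 ± 0.28). TERT, the catalytic subunit of telomerase, had 1.69, 1.24 and 1.89 CPM with ACLY plasmid, against 5.76, 6.42 and 7.37 CPM with vector (log2 -2.01 ± 0.21), and CDCA7, a factor of DNA methylation maintenance, had 28.1, 28.2 and 28.7 CPM with ACLY plasmid, against 103, 103 and 112 CPM with vector (log2 -1.90 ± 0.06). LRRC8C, a subunit of volume-regulated anion channels, fell by 2.04 and LPAR3, a receptor for lysophosphatidic acid, by 2.21. Measured in CPM, the largest rise was in MT-CO1, a mitochondrial subunit of cytochrome oxidase, at 13501 ± 394 CPM with ACLY plasmid and 10928 ± 536 CPM with vector, and EGFR was among the largest falls, at 7768 ± 115 CPM with ACLY plasmid and 9383 ± 366 CPM with vector (log2 -0.27 ± 0.04). The 13 mitochondrial messenger RNAs did not move alike, with 7 higher and 2 lower, and MT-ND2 fell by 0.42 on the log2 scale. These calls moved with the fit, to 10 higher and 1 lower with library size alone or upper-quartile scaling and to 1 higher and 0 lower in a fit of all 18 libraries of the plasmid experiment. Among long noncoding RNAs LINC00607 (4.25) and PCAT6 (4.21) rose and SNHG4 (-1.73), which overlaps MATR3, fell.

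IL-8 was given to the same line in the other experiment, which allowed a test of whether HN6 responded differently to plasmid and cytokine. The controls were separate, vector for the plasmid and untreated cells for IL-8, and the 2 experiments differ in more than the agent. In a fit of 12 libraries over 16696 genes, 6160 (36.9%) passed the test with IL-8, 15.7% higher and 21.2% lower, and the difference between the responses itself passed for 6070 (36.4%). Changes with ACLY plasmid in this comparison come from that fit. Across genes the log2 changes had a Pearson correlation of 0.473, a description over genes that share libraries and are not independent. Of the 1596 genes at least 2-fold higher with ACLY plasmid in this fit, 636 were called higher with IL-8, 46 lower and 914 neither, and of the 537 at least 2-fold lower, 252 were called lower with IL-8, 19 higher and 266 neither.

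The responses parted in lipid and inflammatory genes. Of 28 cholesterol genes 0 rose and 23 fell with IL-8 (median -0.48), while the median with ACLY plasmid was 0.30, and the difference passed for 25, higher with ACLY plasmid for 24 of them. SCD changed by 0.78 with ACLY plasmid and by -0.78 with IL-8 (difference 1.56, adjusted p = 5.61e-21). CXCL8 changed by 1.26 with ACLY plasmid and by -1.37 with IL-8 (difference 2.63), and FN1 by 0.89 with ACLY plasmid and by -0.71 with IL-8 (difference 1.60). Each of these 3 genes rose with one agent and fell with the other. The difference passed for 21 of 38 interferon-stimulated genes and 22 of 31 cytokines, in each case higher with ACLY plasmid, and for 8 of 11 mucins and defence proteins, all higher with ACLY plasmid. ACLY itself fell by 0.32 with IL-8 (difference 3.36).

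Other groups moved the same way with both agents, further with the plasmid. The hypoxia list had a median of 1.27 with ACLY plasmid and 0.41 with IL-8, and 25 of 25 members differed, 23 of them higher with ACLY plasmid. NDRG1 rose by 4.10 with ACLY plasmid and by 2.24 with IL-8 (difference 1.86, adjusted p = 2.21e-18). The cell cycle list had 34 of 35 members lower with IL-8 (median -0.56), and 25 of the 35 fell further with ACLY plasmid, but MKI67, the proliferation antigen, changed by -0.87 with ACLY plasmid and -0.84 with IL-8 (difference -0.03 ± 0.07, adjusted p = 0.764). DNA replication genes showed the wider gap, at a median of -0.87 with ACLY plasmid and -0.17 with IL-8, with 34 of 37 lower with ACLY plasmid. The integrated stress response leaned the other way, with a median of 0.04 with ACLY plasmid and 0.61 with IL-8 and 19 of 31 members lower with ACLY plasmid than with IL-8, although CHAC1 changed by 2.91 with ACLY plasmid and 2.79 with IL-8 (difference 0.12 ± 0.31, adjusted p = 0.80).

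**Figure D5:**
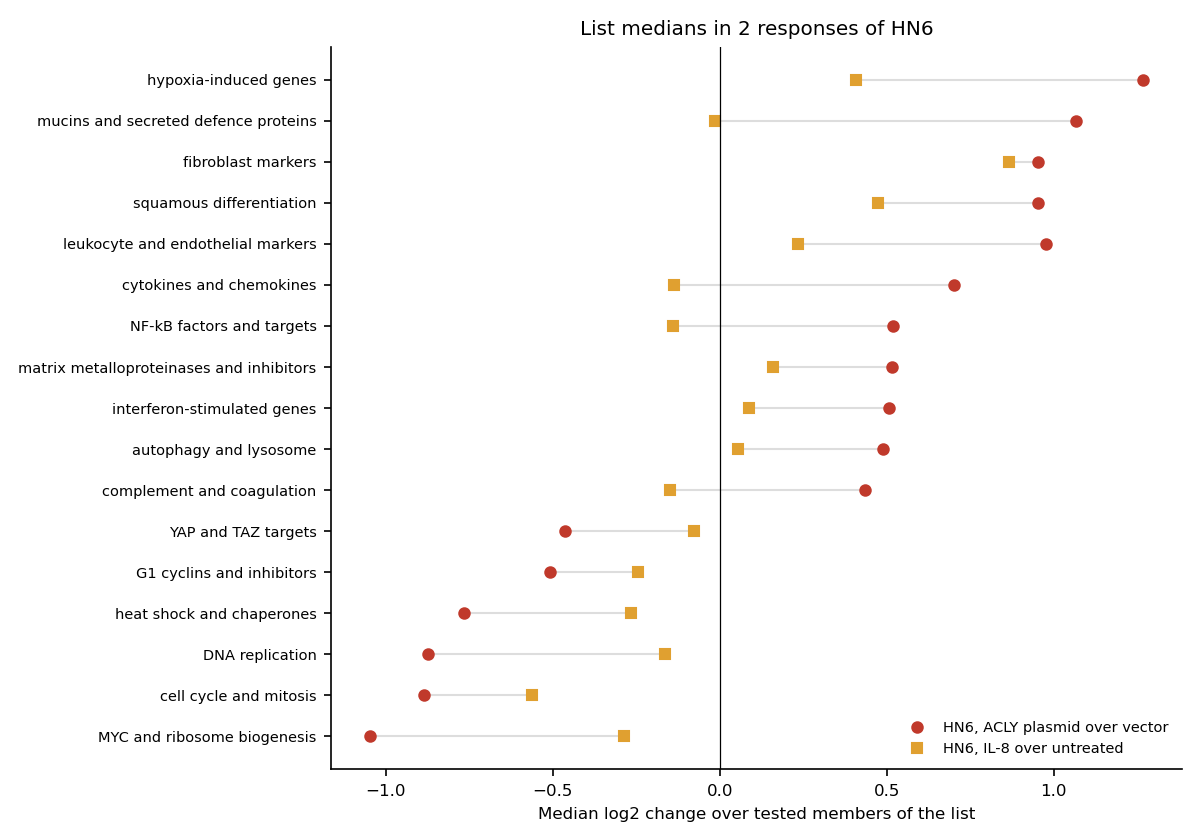
Median log2 change over the tested members of 17 lists in HN6, for ACLY plasmid over vector (circles) and IL-8 over untreated (squares). The x axis is the median log2 change and the lists are those whose median with ACLY plasmid is 0.4 or more in size; cytokines, NF-kB targets and complement lie above 0 with ACLY plasmid and below 0 with IL-8.

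The same plasmid in Cal27 is a weaker comparison, because the Cal27 libraries labelled with ACLY plasmid stood apart from their label. In them the 12 genes that mark HN4 stood at 0.545 of the level of untreated HN4 and the 13 that mark Cal27 at 0.246 of that of untreated Cal27, against 0 and 1.02 in Cal27 with vector. In a fit of 12 libraries over 18054 genes, 12068 (66.8%) passed in the libraries labelled Cal27, 33.3% higher and 33.5% lower. The difference between HN6 and those libraries passed for 11822 (65.5%), of which 5167 were called in opposite directions. ACLY rose by 3.03 in HN6 and 2.99 in the libraries labelled Cal27 (difference 0.04 ± 0.06, adjusted p = 0.548). NDRG1 rose by 4.10 in HN6 and fell by 2.29 in the libraries labelled Cal27, and CCND1 fell by 1.47 in HN6 and rose by 1.03 in them. Among 8665 genes whose levels in untreated HN4 and Cal27 lie within 1.5-fold, a limit chosen after seeing the data, the difference passed for 5622. Of the 8665, 5213 were called in HN6 and 5052 in the libraries labelled Cal27. For 2785 the difference passed and the 2 calls were in opposite directions. Of the 705 genes changed 2-fold or more in HN6, 21 were called in the same direction in the libraries labelled Cal27, 418 in the opposite one and 266 not. The part of the line markers in these differences was not tested beyond that limit.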

How the data were processed

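RNA was taken with TRIzol and messenger RNA selected on poly-T beads, per the labels' protocols. The submitters' processing notes name CASAVA, HISAT2 2.0.5, featureCounts 1.5.0-p3, DESeq2 and the build hg38, and the authors deposited 1 table of raw counts per gene. The strand setting, annotation release and treatment of reads with several matches are not given in the sources used here. All 58735 gene IDs matched GENCODE 29, whose symbols were used. From the counts, edgeR 4.0.16 (R 4.3.3) was run on the 6 HN6 libraries alone, with trimmed mean of M values scaling, a filter on low counts (minimum count 10, minimum total 15) that left 16073 genes, and the robust quasi-likelihood test. Adjusted p-values are Benjamini-Hochberg values over all tested genes, called at 0.05. For a single gene, an exact permutation test of 3 against 3 libraries cannot go below 0.1. The common biological coefficient of variation was 0.0548. Differences from IL-8 and from Cal27 were interaction terms in fits of 12 libraries each. The code was tested on simulated data.

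Named genes are ACLY, the 15 largest rises and falls by fold among called protein-coding genes whose groups did not overlap and whose mean level was 1 or more in log2 CPM, the 10 largest rises and falls in CPM, the 5 largest rises and falls among long noncoding RNAs, up to 4 called members of each list, and single members whose role needed them. SOX4, NOS3, NUP35 and EIF5A are outside that rule. The members, the 49 lists and the tests were chosen with earlier results of these data known. Of the 234 genes named by rank or as leading list members, ACLY included, 146 overlap another annotated gene. Alternatives were other scalings, filters, tools, a replicate block and leaving out each library. Some single genes are not reported here.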

Additional observations from a re-analysis of the deposited data

Results flagged for a closer look

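The response of HN6 to ACLY plasmid differed from that to IL-8 for 6070 genes by the test of the difference (edgeR, adjusted p under 0.05), and from that of the libraries labelled Cal27 with ACLY plasmid for 11822. ACLY differed by 3.36 on the log2 scale between HN6 with ACLY plasmid and HN6 with IL-8, each against its own control.

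In the libraries labelled Cal27 with ACLY plasmid, genes that mark HN4 stood at 0.545 of their untreated HN4 level. Genes were singled out among ACLY and the 15 largest rises and 15 largest falls in HN6. They were those called in opposite directions in HN6 and in the libraries labelled Cal27, with a called difference. Their untreated HN4 and Cal27 levels also lay within 1.5-fold, a limit chosen after seeing the data. The log2 change in HN6 minus that in the libraries labelled Cal27 was 4.97 for EGR1, 4.77 for TMEM92, -3.65 for HSD11B2, -2.88 for LYAR and -2.60 for PLD6. What these differences owe to the line markers was not tested beyond that limit.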

How the results depend on the processing

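The 233 genes named by rank or as leading list members, ACLY apart, were run under the alternatives, and none changed direction. Genes named for a role alone or outside the naming rule were not among them. The 1.5-fold test and the untreated controls were read for counts of calls and for ACLY alone. Of 3199 values of these 233 genes under the alternatives, 3178 kept direction and call and 21 kept direction but missed the threshold. Against the 9781 calls reported, DESeq2 gave 9010, no filter on low counts 9713, an 18-library fit 9584, and the untreated HN6 as controls, chosen after seeing the data, 9986. A test against a 1.5-fold change called 2541 genes, 1508 higher and 1033 lower. With a mean of at least 5 CPM, 622 genes were at least 2-fold higher and 206 at least 2-fold lower, since fewer low-level genes were tested. For genes within 1.5-fold between untreated HN4 and Cal27, the difference between HN6 and the libraries labelled Cal27 passed for 5622, again with fewer genes tested. Leaving out 1 library at a time gave 8889 to 9588 calls, 4354 to 4726 higher and 4535 to 4862 lower, 1488 to 1654 at least 2-fold higher and 507 to 528 at least 2-fold lower, an ACLY change of 3.01 to 3.06, and differences for 11574 to 11816 genes against Cal27 and 5555 to 6022 against IL-8. Same-numbered libraries correlated by 0.05 to 0.12 in their deviations from the group mean, and differently numbered ones by -0.10 to -0.007. The labels do not say that a number marks a shared culture or day, so the numbers were not taken as pairs. Whether they mark one was not tested. A fit with the replicate block called 9878 genes. Other scalings moved the median of all genes by at most 0.079. The majority of all calls turned to higher with library size alone (5527 higher and 4189 lower) and with upper-quartile scaling (5603 and 4146). With DESeq2 size factors it stayed lower (4854 higher and 4931 lower). The sign of the median flipped for the basal squamous lineage and ERK feedback lists. The majority of calls flipped for the histone acetylation list and for the Notch and Wnt list. The integrated stress response list, tied at 14 higher and 14 lower, turned to more higher under other scalings. The nuclear long noncoding RNA list, at 11 higher and 12 lower, came to a tie of 11 and 11. Genes at a few counts per library carry the widest errors.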
